A study of Homo sapiens with 6 samples.

Results

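The genes described here encode aminoacyl-tRNA synthetases, 19 that act in the cytosol and 16 that act in mitochondria. They were taken by symbol, with no threshold on their values, and all 35 were found among the 50550 gene rows of the count and FPKM tables. Other genes of the family were not analysed here. RNA was sequenced from U2OS, an established human osteosarcoma cell line, in 3 libraries titled Lv_LINC00673, whose genotype label is LINC00673, and 3 titled Lv_NC, whose genotype label is NC. The series is described as a depletion of the long noncoding RNA LINC00673, but the labels explain neither the method of depletion nor the name NC, and the comparison is stated there to be with wild-type cells. All libraries come from 1 cell line, and nothing in the labels says that libraries of a group were separate cultures. The p-values therefore set the group difference against the spread among these libraries only, and part of that spread may be technical.

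Library totals ran from 61815841 to 87227980 counts. The level of LINC00673 was 6.55, 6.23 and 6.38 CPM (read counts scaled to a common library size, here with TMM factors that balance library composition) in the Lv_LINC00673 libraries and 9.16, 9.27 and 7.08 CPM in the Lv_NC libraries, each in the order of replicates 1, 2 and 3, as everywhere below. All 3 Lv_LINC00673 values lay below all 3 Lv_NC values. This difference did not pass (log2 fold change -0.41, SE 0.16, adjusted p = 0.0924 in edgeR's quasi-likelihood test, adjusted over all tested genes by Benjamini-Hochberg), so directions below are those between library titles. Among markers of the osteosarcoma line, RUNX2, ALPL and VIM were higher in Lv_LINC00673 and COL1A1 did not pass. Summed CPM of 6 blood and immune markers were 0.172 to 0.281 in Lv_LINC00673 and 0.0739 to 0.443 in Lv_NC, with 2 of the 6 at 0 in every library. The corresponding ranges were 5.15 to 6.34 and 3.33 to 3.93 for 4 endothelial markers, 4.49 to 5.14 and 3.57 to 3.87 for 4 epithelial markers, and 3.30 to 4.58 and 1.79 to 2.66 for 4 neural and muscle markers. These marker sums were scaled by library totals alone, without TMM factors, unlike the other CPM given here. The TMM factors were 1.03 to 1.08 in Lv_LINC00673 and 0.929 to 0.954 in Lv_NC. Scaling with them would lower the Lv_LINC00673 sums relative to the Lv_NC sums. The part of these markers in the results below was not tested.

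Each synthetase joins an amino acid to its matching tRNA, and the charged tRNA then carries that residue to the ribosome. Cytosolic and mitochondrial translation use separate enzymes for most amino acids, all of them encoded in the nucleus, while GARS1 and KARS1 each supply both compartments. The enzymes fall into 2 structural classes, and several cytosolic members are held in a multisynthetase complex with the scaffold proteins AIMP1, AIMP2 and EEF1E1. Many cytosolic synthetase genes are targets of ATF4, the transcription factor made when amino acids are short or the endoplasmic reticulum is stressed.

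Cytosolic synthetase messages were mostly more abundant than mitochondrial ones. Levels between genes were compared in the deposited FPKM, which are per length of transcript. In Lv_NC the cytosolic genes had a median of 36.8 FPKM and ranged from 2.59 to 162, and the mitochondrial genes had a median of 10.2 and ranged from 0.295 to 18.8. The 10 highest genes were all cytosolic. YARS1, the tyrosyl-tRNA synthetase, led with 162 ± 5.02 FPKM (SD, n = 3), followed by the seryl enzyme SARS1 with 153 ± 9.36 and the methionyl enzyme MARS1 with 131 ± 15.03. At the other end of the cytosolic group were FARSB, the beta subunit of the phenylalanyl enzyme, with 2.59 ± 1.06, EPRS1, the fused glutamyl and prolyl enzyme, with 5.06 ± 1.41, and the valyl enzyme VARS1 with 5.07 ± 0.497. The place of VARS1 is that of 1 row only, since this row held 14.0 to 15.1% of the reads counted for its symbol over numbered copy rows. The FPKM of FARSB rest on an implied transcript length that differed between libraries, as given below. Among mitochondrial genes the threonyl enzyme TARS2 (18.8 ± 0.202), the cysteinyl enzyme CARS2 (17.9 ± 1.38) and the alanyl enzyme AARS2 (15.4 ± 0.465) were highest in mean FPKM. The lowest were VARS2 (0.295 ± 0.134), WARS2 (2.97 ± 0.109) and RARS2 (5.203 ± 1.20). The VARS2 row likewise held only 4.63 to 10.7% of the reads of its symbol, so its last place is that of the row, not of all reads of the symbol. The ranges of neighbours in this order overlapped at 24 of 34 steps, so only coarse positions can be read from it. Summed over the 19 cytosolic genes, the FPKM were 971, 1071 and 983 in Lv_LINC00673 and 1116, 1033 and 1032 in Lv_NC, which overlap. Over the 16 mitochondrial genes the sums were 147, 148 and 148 against 166, 159 and 155, with every Lv_LINC00673 library below every Lv_NC library.

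**Figure D1:**
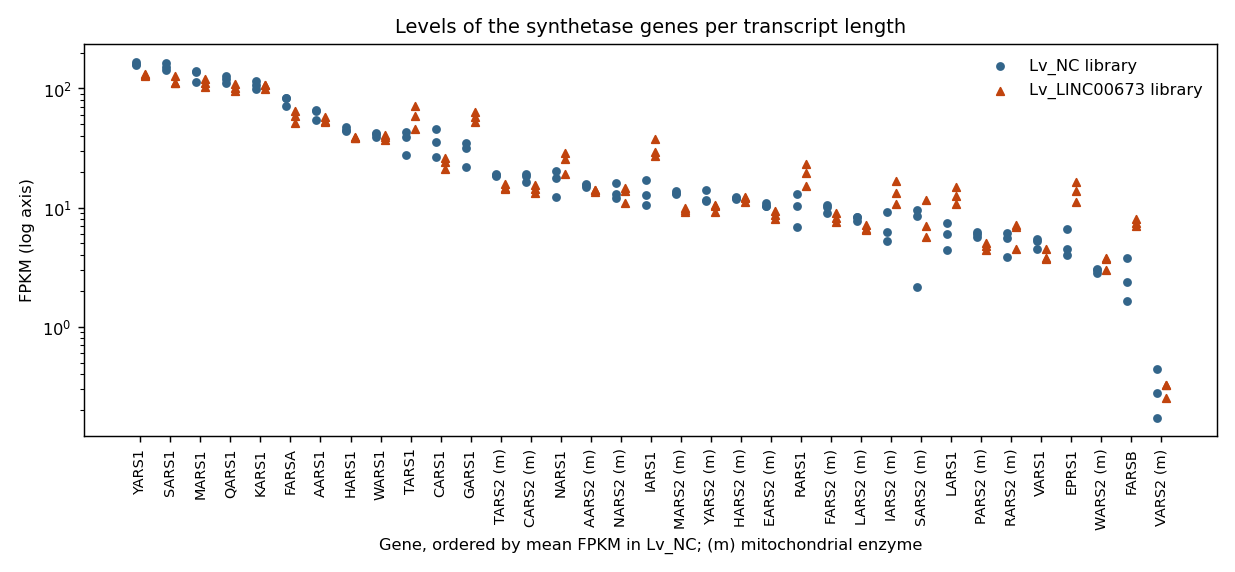
FPKM of each synthetase gene (log axis) in the 3 Lv_NC libraries (circles) and the 3 Lv_LINC00673 libraries (triangles), ordered by mean FPKM in Lv_NC, with mitochondrial enzymes marked (m). The first 12 genes are cytosolic, and EPRS1, FARSB and LARS1 lie among the lowest in Lv_NC but higher in Lv_LINC00673.

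The main comparison asked which synthetase genes differed between the groups, and the cytosolic ones moved in opposite directions. Of 19 tested, 6 rose in Lv_LINC00673 and 9 fell at an adjusted p of 0.05, while 4 did not pass. Of all 21933 genes tested, 14.3% were called higher and 12.5% lower. The median log2 fold change of the cytosolic genes was -0.22 and that of all genes tested 0.05, but the range ran from -0.74 to 1.28. Of the 16 mitochondrial genes, 1 rose, 9 fell and 6 did not pass, with a median of -0.37 and a range from -0.64 to 0.83. In shares, 31.6% of cytosolic and 6.25% of mitochondrial genes rose, and 47.4% and 56.2% fell. The difference between these shares was not tested. In CPM all 3 Lv_LINC00673 libraries lay above all 3 Lv_NC libraries at 6 cytosolic and 1 mitochondrial gene and below them at 11 and 10. Over all tested genes these shares were 23.7% above and 21.4% below.

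**Figure D2:**
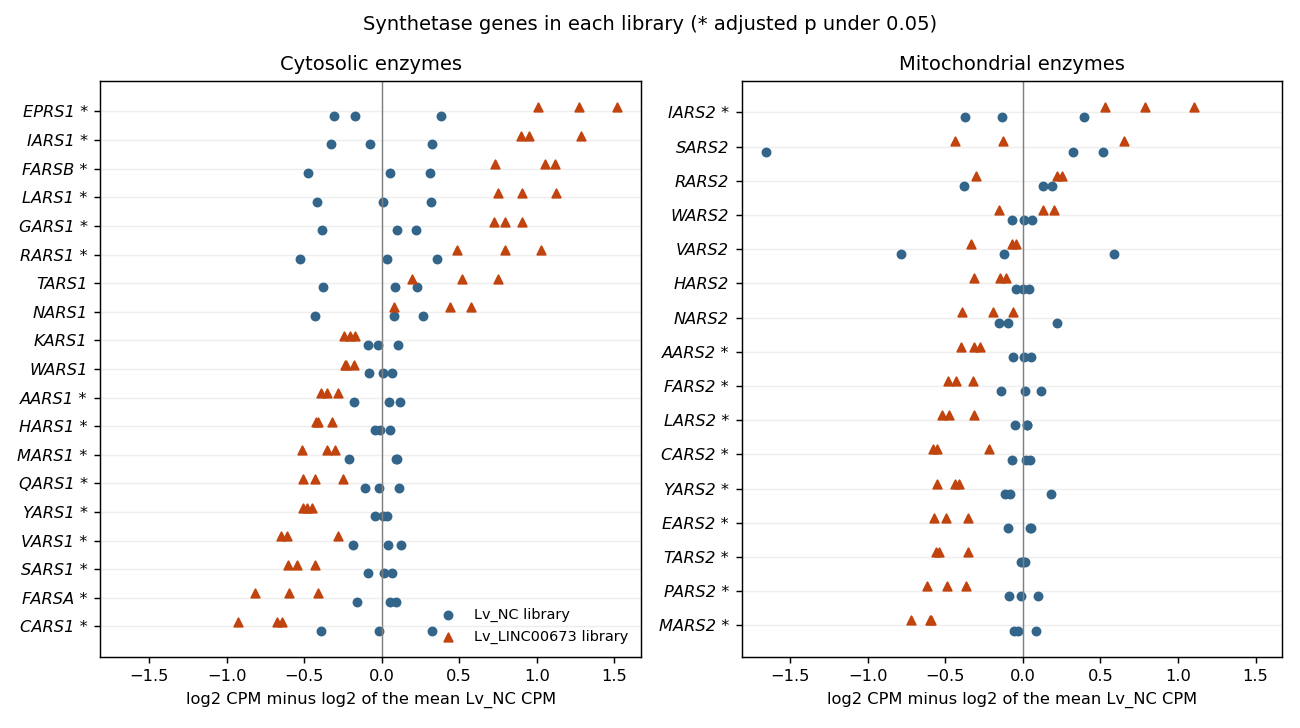
Log2 CPM of each gene in each library relative to the mean of Lv_NC, for cytosolic (left) and mitochondrial (right) enzymes ordered by log2 fold change, with circles for Lv_NC, triangles for Lv_LINC00673 and an asterisk where the adjusted p was under 0.05. The 6 cytosolic genes at the top, EPRS1 to RARS1, have every triangle to the right of every circle, and IARS2 alone does so among mitochondrial genes.

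The rising cytosolic genes were EPRS1, IARS1, FARSB, LARS1, GARS1 and RARS1. EPRS1 stood at 54.4, 77.2 and 65.1 CPM in Lv_LINC00673 and at 35.2, 21.8 and 24.0 CPM in Lv_NC. Its groups were well apart, and the level was 2.43-fold higher (log2 fold change 1.28, SE 0.20, adjusted p = 0.00533 in edgeR). IARS1, which charges isoleucine, had 125, 163 and 129 CPM against 84.0, 53.4 and 63.7 (2.08-fold, log2 fold change 1.05, SE 0.17, adjusted p = 0.00592). FARSB had 28.5, 37.2 and 35.7 against 21.3, 12.4 and 17.9 CPM (1.97-fold, log2 fold change 0.98, SE 0.20, adjusted p = 0.0111). In each of these genes Lv_NC library 1 was the nearest of its group to Lv_LINC00673. LARS1, the leucyl enzyme, had 52.0, 67.5 and 58.1 against 38.6, 23.2 and 31.2 CPM (1.91-fold, log2 fold change 0.93, SE 0.18, adjusted p = 0.00961). GARS1, the glycyl enzyme, had 138, 156 and 145 against 97.0, 63.8 and 89.0 CPM (1.76-fold, log2 fold change 0.81, SE 0.15, adjusted p = 0.00795). The arginyl enzyme RARS1 had 32.8, 47.6 and 40.5 against 30.0, 16.2 and 23.9 CPM (1.72-fold, log2 fold change 0.79, SE 0.23, adjusted p = 0.0336). The gap between its groups was narrow, and its call was lost without Lv_LINC00673 library 2 (adjusted p = 0.120) or 3 (0.0936) and without Lv_NC library 2 (0.0616) or 3 (0.0955). The other 5 calls remained whichever library was left out.

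The 9 cytosolic genes that fell were 1.27-fold to 1.67-fold lower. YARS1 had 319, 311 and 305 CPM in Lv_LINC00673 and 445, 437 and 422 in Lv_NC, 1.39-fold lower with little spread within either group (log2 fold change -0.48, SE 0.07, adjusted p = 0.00502 in edgeR). SARS1 had 233, 253 and 224 against 357, 344 and 321 CPM (log2 fold change -0.52, SE 0.08, adjusted p = 0.00557). FARSA, the catalytic alpha subunit of the phenylalanyl enzyme, had 119, 89.6 and 104 against 142, 168 and 164 CPM (log2 fold change -0.60, SE 0.12, adjusted p = 0.0104). These 3 calls remained whichever library was left out. The histidyl enzyme HARS1 had 77.4, 72.0 and 72.6 against 93.8, 95.9 and 100.3 CPM (log2 fold change -0.39, SE 0.08, adjusted p = 0.0120). CARS1, for cysteine, had 67.4, 68.8 and 56.6 against 134, 81.8 and 106 CPM (log2 fold change -0.74, SE 0.17, adjusted p = 0.0161), and the glutaminyl enzyme QARS1 271, 239 and 227 against 318, 349 and 299 CPM (log2 fold change -0.39, SE 0.10, adjusted p = 0.0214). Of these, CARS1 varied most within Lv_NC, with its highest value in library 1. That holds for its own row, since the Lv_NC read counts summed with its copy row were 14656, 14208 and 11836. MARS1 had 308, 318 and 274 against 419.6, 417 and 339 CPM (log2 fold change -0.39, adjusted p = 0.0298), and VARS1 19.7, 15.3 and 15.7 against 21.0, 26.2 and 24.7 CPM (log2 fold change -0.50, adjusted p = 0.0379). AARS1, the alanyl enzyme, fell with a log2 fold change of -0.34 (adjusted p = 0.0326). The groups of these 3 genes did not overlap in CPM but did in FPKM. The count of 9 was 5 without Lv_LINC00673 library 2, 3 without Lv_LINC00673 library 3 and 5 without Lv_NC library 2, and it was 3 when libraries were scaled by their totals alone (5.58% of all genes lower) or when limma was run on log2(FPKM + 1) (5.59% lower, 14.7% higher). With library totals alone, and likewise with limma, the 3 were FARSA, SARS1 and YARS1. Scaling by totals shifted the median over all genes from 0.05 to 0.22 on the log2 scale. For the fits without 1 library the share over all genes was not counted. The drop in these counts can therefore not be set against that over all genes.

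The 4 cytosolic genes that did not pass were TARS1, NARS1, KARS1 and WARS1. TARS1, for threonine, had 123, 181 and 154 against 126, 82.7 and 115 CPM, and NARS1, for asparagine, 53.4, 75.4 and 68.4 against 60.8, 37.4 and 53.2 CPM. In both, Lv_NC library 1 lay above Lv_LINC00673 library 1, so the groups overlapped (log2 fold changes 0.51 and 0.38, adjusted p = 0.0695 and 0.172 in edgeR). TARS1 passed in DESeq2 (13.5% of all genes higher, 13.0% lower) and with library totals alone (18.5% higher), and each called 7 cytosolic genes higher. KARS1, for lysine, and WARS1, the tryptophanyl enzyme induced by interferon, had log2 fold changes of -0.20 and -0.22 (adjusted p = 0.102 and 0.0820), although their Lv_LINC00673 libraries all lay below their Lv_NC libraries in CPM.

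The phenylalanyl enzyme of the cytosol is built from FARSA and FARSB subunits in equal number, and their messages moved in opposite directions. The ratio of FARSB to FARSA in CPM was 0.240, 0.416 and 0.342 in Lv_LINC00673 against 0.151, 0.0736 and 0.109 in Lv_NC, with no overlap. Per length of transcript, in FPKM, the ratio was 0.108, 0.156 and 0.126 against 0.0520, 0.0198 and 0.0289. FARSB was thus below FARSA in all 6 libraries on both scales. FARSB was also the only member whose reads per unit of FPKM differed between groups by more than 3%. Its counts and FPKM together imply a transcript length of 4176, 5033 and 5118 bases in Lv_LINC00673 and 5436, 6982 and 7096 bases in Lv_NC, a ratio of 0.734. For FARSA the same ratio was 1.00. The sources used here do not give the length model behind the FPKM, and the cause of this difference was not tested.

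The multisynthetase complex holds 7 of the cytosolic genes. Of these, 4 rose (EPRS1, IARS1, LARS1 and RARS1), 2 fell (MARS1 and QARS1) and KARS1 did not pass. The median log2 fold change over the complex was 0.79, while 14.3% of all genes rose and 12.5% fell. Of its 3 scaffold genes AIMP1 rose from 15.2 ± 3.10 to 23.3 ± 3.47 CPM (SD, n = 3; adjusted p = 0.0371 in edgeR), AIMP2 fell from 99.3 ± 5.46 to 70.3 ± 2.23 CPM (adjusted p = 0.00641), and EEF1E1 did not pass. In the fit that allows for GC content and length, given further on, those same 4 complex genes were called higher and 0 lower. There neither AIMP1 nor AIMP2 passed (adjusted p = 0.107 and 0.0800 in edgeR), and EEF1E1 was called lower (log2 fold change -0.44, adjusted p = 0.01125). Library totals alone likewise gave 4 of the 7 complex genes higher and 0 lower, against 18.5% and 5.58% of all genes. By structural class, 5 of 19 class I genes rose and 10 fell, and 2 of 16 class II genes rose and 8 fell, against 14.3% and 12.5% of all genes. With library totals alone 5 were higher and 3 lower in class I and 3 and 3 in class II, against 18.5% and 5.58% of all genes. With the offset 5 were higher and 5 lower in class I and 2 and 5 in class II, against 16.3% and 15.6% of all genes.

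Mitochondrial synthetase genes mostly fell or did not pass. MARS2, for methionine, had 29.5, 26.8 and 29.3 CPM in Lv_LINC00673 and 43.3, 47.0 and 42.7 in Lv_NC, 1.55-fold lower with no overlap (log2 fold change -0.64, SE 0.10, adjusted p = 0.00534 in edgeR). TARS2 had 42.9, 37.2 and 37.7 against 54.4, 55.3 and 55.0 CPM (log2 fold change -0.48, SE 0.10, adjusted p = 0.00999). EARS2, the glutamyl enzyme, had 35.6, 30.6 and 32.4 against 42.6, 47.0 and 47.2 CPM (log2 fold change -0.47, SE 0.10, adjusted p = 0.0138). In these 3 genes Lv_LINC00673 library 1 was the nearest of its group to Lv_NC. LARS2, for leucine, had 34.2, 29.5 and 30.6 against 43.2, 40.9 and 43.2 CPM (log2 fold change -0.43, adjusted p = 0.0167), and AARS2 65.7, 60.1 and 63.7 against 76.1, 82.2 and 80.0 CPM (log2 fold change -0.33, adjusted p = 0.0229). YARS2, for tyrosine, had 19.7, 21.3 and 21.7 against 32.8, 27.2 and 26.6 CPM (log2 fold change -0.47, adjusted p = 0.0267). CARS2, PARS2 and FARS2, for cysteine, proline and phenylalanine, also fell (log2 fold changes -0.44, -0.49 and -0.41, adjusted p = 0.0327, 0.0317 and 0.0476). The call of FARS2 was the nearest to the threshold. IARS2, for isoleucine, was the 1 mitochondrial gene that rose, from 35.03, 20.5 and 24.3 CPM in Lv_NC to 38.4, 57.2 and 45.9 in Lv_LINC00673 (1.77-fold, log2 fold change 0.83, SE 0.21, adjusted p = 0.0239). The calls of MARS2 and TARS2 remained whichever library was left out, whereas the count of lower genes was 2 without Lv_LINC00673 library 2, Lv_LINC00673 library 3 or Lv_NC library 3 and 5 without Lv_NC library 2, and the call of IARS2 was lost without Lv_LINC00673 library 2 or 3 (adjusted p = 0.0886 and 0.0681) or Lv_NC library 2 or 3 (0.0587 and 0.0919). The share over all genes was not counted for the fits without 1 library, so these losses cannot be set against it. With library totals alone 3 fell (EARS2, MARS2 and TARS2), and with limma on log2(FPKM + 1) 2 fell (MARS2 and TARS2).

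The remaining mitochondrial genes were HARS2, NARS2, RARS2, SARS2, VARS2 and WARS2. NARS2, for asparagine, had 28.03, 32.2 and 35.1 against 42.8, 33.0 and 34.4 CPM (log2 fold change -0.21, adjusted p = 0.298 in edgeR). RARS2, the arginyl enzyme, had 11.1, 16.3 and 15.9 against 15.6, 10.5 and 14.9 CPM, and WARS2, the tryptophanyl enzyme, 10.5, 9.98 and 8.19 against 8.70, 9.52 and 9.16 CPM. Both overlapped between groups, with log2 fold changes of 0.08 and 0.06 (adjusted p = 0.817 and 0.788).

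Reads of 4 members were divided among numbered copy rows of the same symbol, so their own rows are uncertain. SARS2, for serine, had 1645, 705 and 890 counts in Lv_LINC00673 and 1385, 1657 and 331 in Lv_NC on its own row, and 1 copy row held the rest, leaving 10.6 to 48.8% of the reads of both rows on the row without a number. Summed, the counts were 3368, 2164 and 2596 against 3184, 3714 and 3115, and the log2 fold change went from 0.10 to -0.16 (adjusted p = 0.420 in edgeR), so Lv_NC library 3, far below its group on the single row, lay close to the others in the sum. VARS2 held 4.63 to 10.7% of the reads of its 6 rows and did not pass on its own row (log2 fold change -0.15, adjusted p = 0.797) or summed (-0.13, adjusted p = 0.533). VARS1 held 14.0 to 15.1% of the reads of its 7 rows and fell by either count (log2 fold change -0.50 alone and -0.48 summed, adjusted p = 0.0197 when summed). CARS1 held 44.3 to 71.0% of the reads of its 2 rows, and its log2 fold change went from -0.74 to -0.41 when they were summed (adjusted p = 0.00909). With copies summed, 6 cytosolic genes were higher and 9 lower and 1 mitochondrial gene was higher and 9 lower, against 16.0% and 13.8% of all genes.

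A cytosolic and a mitochondrial enzyme for the same amino acid could be set side by side in 16 pairs, with FARSA standing for phenylalanine and EPRS1 counted under both glutamate and proline. In 5 pairs both genes fell (alanine, cysteine, phenylalanine, methionine and tyrosine) and in 1 pair, isoleucine, both rose. In 3 pairs the cytosolic gene rose and the mitochondrial gene fell, namely leucine (LARS1 and LARS2), glutamate (EPRS1 and EARS2) and proline (EPRS1 and PARS2). In 2 pairs (asparagine and tryptophan) neither passed, and in the other 5 only 1 gene did. Each of the 5 falling pairs lost the call of at least 1 gene with the GC and length offset given further on. The same held with library totals alone and with limma on log2(FPKM + 1), and both isoleucine genes stayed higher in all these fits. LARS2 and EARS2 stayed lower with the offset, and PARS2 lost its call. Library totals alone lost LARS2 and PARS2, and limma lost EARS2 too. Shares for pairs of other genes were not counted. The ratio of LARS1 to LARS2 in FPKM was 1.52, 2.29 and 1.90 in Lv_LINC00673 against 0.894, 0.573 and 0.721 in Lv_NC, so the mitochondrial message was the more abundant of the pair in every Lv_NC library and the less abundant in every Lv_LINC00673 library. The ratio of EPRS1 to EARS2 likewise went from 0.650, 0.387 and 0.409 to 1.18, 2.08 and 1.59. In 13 of the 16 pairs the cytosolic message was the higher one by mean FPKM in Lv_NC, and the exceptions were these 2 and EPRS1 with PARS2, whose ratio was 1.12, 0.642 and 0.802 in Lv_NC and so above 1 in library 1. With FARSB in place of FARSA, phenylalanine was a further pair of opposite calls and a further exception, since the FARSB to FARS2 ratio was 0.414, 0.156 and 0.236 in Lv_NC, and 0.919, 0.884 and 0.905 in the Lv_LINC00673 libraries. These FPKM ratios also carry the difference in implied FARSB length between groups given above.

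**Figure D3:**
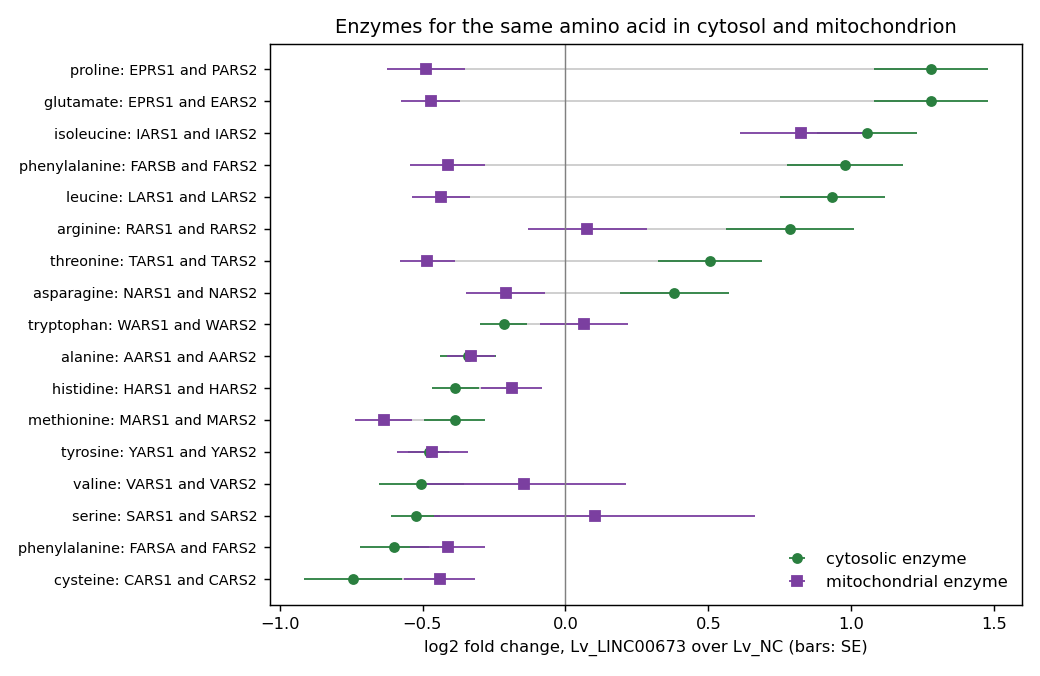
Log2 fold changes (Lv_LINC00673 over Lv_NC, bars show SE) of the cytosolic (circles) and mitochondrial (squares) enzyme for the same amino acid, ordered by the cytosolic value. The pairs with EPRS1, FARSB and LARS1 have the circle above 0 and the square below it, and isoleucine has both above 0.

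The histidyl pair lies head to head on chromosome 5. HARS1 runs leftward from position 140691370 and HARS2 rightward from 140691455, so 84 bases separate their starts. That interval (chr5:140691371-140691454, plus strand, RefSeq on GRCh38.p14) is shown because any promoter within it faces both genes, and none of its bases is set in capitals.
HARS1-HARS2 interval: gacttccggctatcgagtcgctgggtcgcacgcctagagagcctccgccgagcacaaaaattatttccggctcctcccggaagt
Across this interval HARS1 fell as given above. HARS2 had 30.4, 26.4 and 29.5 CPM in Lv_LINC00673 and 31.8, 33.6 and 32.8 in Lv_NC and did not pass (log2 fold change -0.19, SE 0.11, adjusted p = 0.223 in edgeR). The difference between the 2 log2 fold changes was not tested.

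Of 12 synthetase genes listed as responsive to ATF4, 4 rose (EPRS1, GARS1, IARS1 and LARS1), 5 fell (AARS1, CARS1, MARS1, SARS1 and YARS1) and 3 did not pass, with a median log2 fold change of 0.08. Of all genes, 14.3% rose and 12.5% fell. With library totals alone 5 of the 12 were higher and 2 lower, against 18.5% and 5.58% of all genes. ATF4 itself fell from 1040 ± 59.2 to 691 ± 53.9 CPM (SD, n = 3; log2 fold change -0.59, adjusted p = 0.00469 in edgeR). Of 19 amino acid response genes, 11 fell and 1 rose, with a median of -0.48, where 12.5% of all genes fell and 14.3% rose. The pseudokinase gene TRIB3 fell from 164 ± 12.6 to 91.2 ± 12.2 CPM, PHGDH, the entry enzyme of serine synthesis, from 530 ± 50.2 to 345 ± 28.9 CPM, and the stress-induced SESN2 from 76.8 ± 12.3 to 50.1 ± 8.98 CPM. EIF2AK4, which encodes the kinase GCN2 that senses uncharged tRNA, was the 1 that rose, from 36.2 ± 5.17 to 60.4 ± 6.85 CPM (log2 fold change 0.74, adjusted p = 0.00764). With the GC and length offset 11 of these response genes fell and 1 rose, with a median of -0.31, and with library totals alone 7 fell and 1 rose. With the offset 4 of the 12 synthetase genes were called higher and 2 lower. In that fit 16.3% of all genes were called higher and 15.6% lower.

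ATF4 binds composite elements with the letters TGATGNAA, and these letters were searched on both strands of RefSeq promoter windows from 250 bases before to 50 after each start (GRCh38.p14), overlaps allowed. Promoters were matched for 30 of the 35 members, and AARS2, LARS1, VARS1, VARS2 and YARS1 had none. A match was found in 8 of the 30, 7 of 16 cytosolic and 1 of 14 mitochondrial genes, and in 3.62% of all 35116 promoters. The member counts are per gene, over all its listed starts, and the 3.62% is per single window. A gene with several starts had several windows, so these rates are not directly comparable. The matches are shown, with 11 bases on either side and the matching letters in capitals, because genes that rose, fell and did not pass all carry them. NARS1 and YARS2 have the element on the strand of the gene, and the other 6 have its reverse complement there. The windows of GARS1 and TARS1 belong to a second listed start, downstream of the first base of the annotated gene, and distances are from that start.
IARS1 (chr9:92293692-92293721, minus strand): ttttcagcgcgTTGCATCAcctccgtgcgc
GARS1 (chr7:30594834-30594863, plus strand): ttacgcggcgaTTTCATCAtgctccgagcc
AARS1 (chr16:70289675-70289704, minus strand): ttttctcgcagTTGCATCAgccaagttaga
CARS1 (chr11:3057407-3057436, minus strand): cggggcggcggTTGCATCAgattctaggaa
MARS1 (chr12:57488053-57488082, plus strand): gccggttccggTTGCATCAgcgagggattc
YARS2 (chr12:32756076-32756105, minus strand): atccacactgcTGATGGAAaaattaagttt
TARS1 (chr5:33440956-33440985, plus strand): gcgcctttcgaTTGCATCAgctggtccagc
NARS1 (chr18:57621804-57621833, minus strand): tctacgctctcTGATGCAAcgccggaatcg
Of the 8 genes, IARS1 and GARS1 rose, AARS1, CARS1, MARS1 and YARS2 fell, and TARS1 and NARS1 did not pass. The match began 187 bases before the start in AARS1, 197 in YARS2, 33 in GARS1 and 13 in IARS1, and it spanned the start in CARS1 and MARS1. It began 2 bases after the start in TARS1 and 14 after it in NARS1. EPRS1, SARS1 and WARS1 are on the ATF4 list, were matched, and did not hold these letters in the window.

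MARS1 (chromosome 12, 57488068 to 57516652) overlaps the annotated span of DDIT3, a stress transcription factor gene named here after its values were seen. DDIT3 had 25.2, 20.9 and 25.9 CPM in Lv_LINC00673 and 56.3, 54.0 and 31.1 in Lv_NC (log2 fold change -0.97, adjusted p = 0.0138 in edgeR). Lv_NC library 3 was the lowest of its group for both MARS1 and DDIT3. The sources used here do not say whether counting used strand, so reads of an overlapping stretch cannot be assigned with certainty. The same holds for YARS1 with S100PBP, CARS2 with ING1, EARS2 with GGA2, FARS2 with LYRM4, and for CARS1, FARSA, FARS2, LARS2, NARS2 and WARS2 with their antisense genes.

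The direction of the cytosolic genes went with the base composition of their transcripts, and the part of GC content in the results was tested only by the offset below. GC content and length were taken from the longest coding transcript of each gene in GENCODE release 29, for all 35 members. The 6 cytosolic genes that rose had 41.4 to 48.6% GC and the 9 that fell 46.8 to 62.6%. Across the 19 cytosolic genes, which are not replicates and were measured in the same libraries, Spearman's rho between log2 fold change and GC content was -0.82, while across 11144 genes above a mean log2 CPM of 2 it was -0.52. Across the 16 mitochondrial genes it was -0.17, and RARS2, WARS2 and NARS2, with 41.9, 42.4 and 44.0% GC, were not among the rising genes. Of the 17 members under 50% GC, 7 rose and 3 fell (HARS1, MARS2 and YARS2). Of the 18 at 50% or more, 0 rose and 15 fell. Length went less closely with the fold change, with rho 0.51 for the cytosolic and -0.07 for the mitochondrial genes. Across the same 11144 genes the rho with length was 0.46. The 7 rising members also kept 1 order of libraries, since in all 7 Lv_LINC00673 library 1 was the lowest and library 2 the highest of its group and Lv_NC library 2 was the lowest and library 1 the highest of its group. TARS1, NARS1 and RARS2, which did not pass, had the same order, so it was not particular to the rising members. Its share over all genes was not counted.

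In a fit with an offset for GC content and length in each library, the 6 cytosolic genes and IARS2 were still called higher, and fewer genes were called lower. EPRS1, IARS1, GARS1, FARSB, RARS1 and LARS1 had log2 fold changes of 0.88, 0.71, 0.94, 0.64, 0.57 and 0.47 (adjusted p = 0.000789, 0.000988, 0.00130, 0.00236, 0.00903 and 0.00431 in edgeR), and IARS2 one of 0.59 (adjusted p = 0.0112). Of the 9 falling cytosolic genes 5 remained called, namely FARSA, HARS1, SARS1, VARS1 and YARS1. Their log2 fold changes were -0.24, -0.44, -0.24, -0.39 and -0.26, so that those of FARSA, SARS1 and YARS1 were smaller by over 1.5 times than without the offset. AARS1, CARS1, MARS1 and QARS1 lost the call (log2 fold changes -0.18, -0.52, -0.16 and -0.13, adjusted p = 0.129, 0.107, 0.248 and 0.137). Of the 9 falling mitochondrial genes 4 remained (EARS2, LARS2, MARS2 and TARS2), and NARS2 joined them (log2 fold change -0.33, adjusted p = 0.0204). The lost ones were AARS2, CARS2, FARS2, PARS2 and YARS2 (adjusted p = 0.0976, 0.541, 0.892, 0.160 and 0.0965). Class medians were -0.13 and -0.17, and 16.3% and 15.6% of the 16753 genes of that fit were called higher and lower. GARS1 had a larger and EPRS1 a smaller log2 fold change than without the offset. The offset left a rho of -0.70 with GC content across the cytosolic genes. Across the 11144 genes above a mean log2 CPM of 2 it was 0.00. That value was set in advance, because the offset was fitted to genes above about that level.

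**Figure D4:**
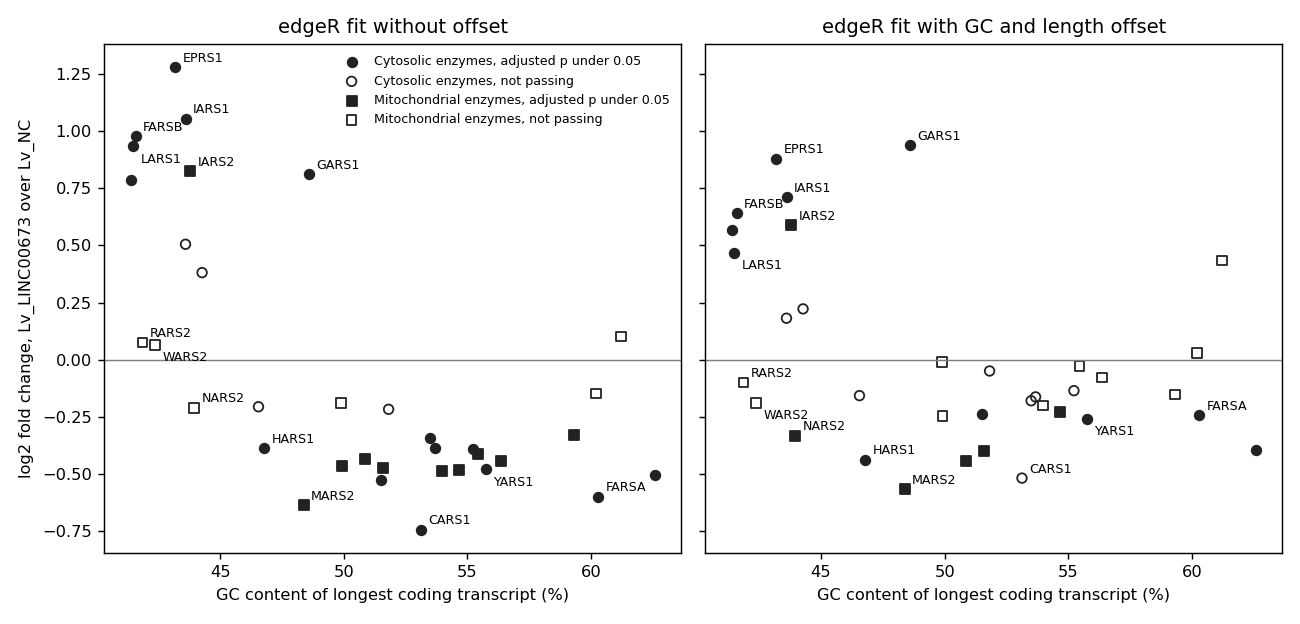
Log2 fold change of each member against the GC content of its longest coding transcript, without (left) and with (right) the GC and length offset; circles are cytosolic and squares mitochondrial enzymes, filled where the adjusted p was under 0.05. Members above 0.4 that passed lie under 50% GC in both panels, and RARS2, WARS2 and NARS2, at 41.9 to 44.0% GC, did not pass in the left panel.

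Other genes that make, modify or use tRNA were counted in lists by function. Their counts are to be read against 14.3% of all genes higher and 12.5% lower. With the offset these shares were 16.3% and 15.6%, and with library totals alone 18.5% and 5.58%. Of 24 tRNA maturation and export genes 10 fell and 3 rose (median log2 fold change -0.28), but with library totals alone 3 were lower and 4 higher. The splicing endonuclease subunits TSEN34 and TSEN54 and the histidine tRNA guanylyltransferase THG1L had the largest falls by log2 fold change, from 6.97 ± 1.39 to 4.50 ± 0.539, from 66.9 ± 5.73 to 43.5 ± 4.12 and from 25.4 ± 0.531 to 17.4 ± 1.495 CPM (SD, n = 3). The 3 that rose were TRMT10C, a subunit of mitochondrial RNase P, from 9.57 ± 1.63 to 16.4 ± 4.67 CPM with overlapping libraries, the tRNA exporter XPOT from 52.9 ± 12.4 to 90.7 ± 12.8 CPM and TRNT1, which adds the CCA end, from 7.52 ± 0.885 to 10.9 ± 1.47 CPM. With the offset 8 fell and 2 rose. Of 24 tRNA modification genes 7 fell and 0 rose (median -0.10). With library totals alone 1 was lower and 5 higher (median 0.06), where 5.58% of all genes were lower and 18.5% higher. The falling genes were led by CTU2 and CTU1, which thiolate the wobble base (log2 fold changes -0.56 and -0.54, adjusted p = 0.00702 and 0.0167 in edgeR), and METTL1, a 7-methylguanosine methyltransferase (-0.49, adjusted p = 0.0386). With the offset 2 fell and 2 rose.

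Of 20 RNA polymerase III genes, whose products transcribe tRNA genes, 4 fell and 2 rose (median log2 fold change -0.07), against 12.5% and 14.3% of all genes. With the offset 3 fell and 1 rose, against 15.6% and 16.3% of all genes. With library totals alone 2 were lower and 5 higher (median 0.09), against 5.58% and 18.5% of all genes. The subunit gene POLR3D fell from 78.6 ± 3.66 to 47.8 ± 3.61 CPM (SD, n = 3; adjusted p = 0.00412 in edgeR), POLR3K from 54.7 ± 6.75 to 36.2 ± 1.32 CPM and POLR3GL from 15.8 ± 0.301 to 11.5 ± 0.952 CPM. The initiation factor gene BDP1 rose from 1.48 ± 0.683 to 3.52 ± 0.901 CPM and GTF3C3 from 11.5 ± 3.61 to 22.1 ± 3.77 CPM. Of 6 cytosolic elongation factor genes 2 fell, EEF1D and EEF1G, with log2 fold changes of -0.39 and -0.29 (adjusted p = 0.0167 and 0.0248), while with the offset 0 fell and 1 rose and with library totals alone 0 passed. Of 9 mitochondrial translation factor genes TUFM fell from 396 ± 13.7 to 278 ± 44.3 CPM and the initiation factor MTIF2 rose from 12.8 ± 1.98 to 22.02 ± 2.81 CPM. Among these 9, 2 fell and 1 rose with the offset, and 1 fell and 1 rose with library totals alone. Of 4 partners of mitochondrial charging, the amidotransferase genes GATB, GATC and QRSL1 and the formyltransferase MTFMT, 0 passed, while with the offset 2 fell. Of 3 editing factor genes AARSD1 and DTD1 fell (log2 fold changes -0.55 and -0.47, adjusted p = 0.00918 and 0.00846) and DTD2 did not pass. Among these 3, 1 was called lower with the offset and 2 with library totals alone.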

How the data were processed

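RNA of 6 U2OS libraries was measured. The authors deposited raw read counts per gene and, in a second table, FPKM per gene. The genome was hg38, per the submitters' processing notes. Aligner, counter, annotation, strand setting and FPKM software were not given in the sources used here. All columns were matched to libraries by name (0 unmatched). The members, taken as a gene family, the lists and the rules were chosen with earlier results of these data known. After filterByExpr and TMM scaling, the counts were compared by edgeR 4.0.16 (robust quasi-likelihood, two-sided, R 4.3.3), Lv_LINC00673 against Lv_NC, with Benjamini-Hochberg adjustment over 21933 genes and a threshold of 0.05. SE is the log2 fold change over the square root of F. The script was tested on simulated data. Rows without a gene symbol that start with new_gene held 0.415 to 0.489% of counts and stayed in. All members are accounted for. Full values were chosen for up to 6 higher and 6 lower members of smallest p per class and the 3 highest and lowest by FPKM, and given for some others described in the text. Of each other list, up to 3 genes per direction were named. The offset was a spline (5 degrees of freedom each) of log2 CPM deviations on GC content and log length, per library. Alternatives were DESeq2 1.42.0, limma 3.58.1 (voom, and log2 FPKM with pseudocounts of 1 and 0.1 and a filter at a mean of 0.1), RLE factors, library totals, no filter, a replicate block, the offset, each library left out and, chosen after seeing the data, numbered copies summed. Same-numbered libraries did not deviate together (r = -0.42, -0.36 and 0.04 over 12349 genes). For Lv_LINC00673 libraries 1, 2 and 3, the highest r with an Lv_NC library of another number was 0.45, 0.35 and 0.11. Counts limit precision only for VARS2, with 51 to 147 counts per library. A marker gene of the cell line is not reported here.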

Additional observations from a re-analysis of the deposited data

How the results depend on the processing

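No called member changed direction under any alternative. The 6 higher cytosolic genes were all still called higher with the offset, DESeq2 and library totals. DESeq2 and library totals also called TARS1. Higher cytosolic genes numbered 5 with limma on log2(FPKM + 1) and no filter, where RARS1 was lost (adjusted p = 0.0887 in limma). They numbered 5 to 7 when 1 library was left out. Lower cytosolic genes numbered 9 in the fit reported, 3 with library totals, 3 with limma on log2(FPKM + 1) or log2(FPKM + 0.1), 1 with log2(FPKM + 1) and no filter, 5 with the GC and length offset and 3 to 9 without 1 library. Lower mitochondrial genes numbered 9, then 3, 2, 2, 1 and 5 in the same order, and 2 to 8 without 1 library. The higher mitochondrial gene was lost (0 called) with log2(FPKM + 1) and no filter, and numbered 0 to 1 without 1 library. No share over all genes was counted for the fits without 1 library. Medians of the cytosolic genes moved from -0.22 to -0.24 (RLE), -0.049 (library totals), -0.25 (DESeq2), -0.063, -0.064 and -0.063 (FPKM settings in the above order) and -0.13 (offset), and lay between -0.26 and -0.22 without 1 library. Those of the mitochondrial genes moved from -0.37 to -0.20 (library totals), -0.41 (DESeq2), -0.19, -0.20 and -0.19 (FPKM settings in the above order) and -0.17 (offset), and lay between -0.42 and -0.33 without 1 library. With a replicate block 3 cytosolic genes were higher (EPRS1, GARS1 and IARS1) and 1 lower (SARS1), and 0 mitochondrial genes were called, where 3.65% of all genes were called higher and 1.86% lower. Among calls lost there, log2 fold changes were 1.00 for FARSB, 0.95 for LARS1, -0.48 for YARS1 (adjusted p = 0.0510 in edgeR) and -0.64 for MARS2 (0.0510), and the medians were -0.21 and -0.37. With the replicate block and the offset together 6 were higher and 3 lower, and 1 mitochondrial gene was higher and 3 lower, with medians of -0.13 and -0.17, against 11.6% and 11.4% of all genes. The libraries share only a number, and no library number pairs them by the labels. The cause of these changes was not tested.

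Members that did not pass and changed sign were RARS2 (-0.10 with the offset and -0.10 with the replicate block and offset; between -0.087 and 0.22 without 1 library), WARS2 (-0.19 and -0.20 in the same 2 fits, between -0.020 and 0.16 without 1 library), SARS2 (-0.16 with copies summed, between -0.33 and 0.45 without 1 library) and VARS2 (0.027 with library totals, 0.010, 0.069 and 0.010 with the FPKM settings, 0.030 with the offset, 0.10 with the replicate block and offset, and between -0.43 and 0.27 without 1 library).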
